A study of Mus musculus with 18 samples.

Results

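Potassium channels let potassium leave a cell, which repolarizes the membrane after an action potential and sets the resting potential. Voltage-gated channels open on depolarization, calcium-activated channels follow the rise of calcium that firing brings, and inward rectifiers and tandem-pore (K2P) channels carry current near rest. In spinal motor neurons (MNs) they set the threshold, the shape of the spike and the rate of firing, and glia around the neurons take up the potassium that is released. The channel genes described here were all genes whose symbol begins with Kcn, 98 of the 27179 genes in the stage and regional tables. Of these, 94 code for proteins of 21 subfamilies and 4 for noncoding RNAs. In the table of mutants, which is per transcript, they had 192 of 35729 transcripts.

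RNA was sequenced from MNs sorted out of mouse spinal cord, in 18 samples. At embryonic day e12.5 (called e12) 6 control samples labelled as wild type came from brachial cord, sorted for GFP from the Mnx1-GFP reporter, which is made in cells using an MN homeodomain gene. Another 3 embryonic samples, labelled Hoxc8 MNΔ, carried that reporter with floxed Hoxc8 alleles and Olig2-Cre. Olig2 is active in the progenitors of MNs, and their progeny share the deletion. For the comparison with these mutants, the paper's figure gives the controls as homozygous for floxed Hoxc8, which the wild-type label does not show. At postnatal day 8 (p8) 3 brachial, 3 thoracic and 3 lumbar wild-type samples were sorted for tdTomato, which the Ai9 allele makes wherever Cre from the Chat locus has been active, so that any Chat-expressing cell could be taken. Cords were pooled within each replicate of the stage comparison, and its segments, C4 to T1, differ from those of the mutant comparison, C7 to T2. The labels do not assign the control samples to one or the other. The p-values below measure the spread between these samples.

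The files hold, for each gene, a base mean (the mean over samples of read counts divided by each sample's size factor), a log2 fold change, its standard error and a p-value, and no value per sample. A level below is the normalized count of a group, worked out from both of these by weighting e12 with 6 samples and p8 with 3, and has no SD. Fold changes are given with 95% intervals. A gene was called where its p-value, adjusted by Benjamini-Hochberg over all genes of the table, was under 0.05. Markers of other cells moved between the stages, and their part in the channel results was not tested. All 10 oligodendrocyte markers were higher at p8, where they made up 43.5% of the summed level of all genes against 0.00939% at e12, with Opalin alone under a level of 1 at e12. All 8 microglia markers were also higher at p8, from a summed level of 98.7 to 23684. Of 7 astrocyte markers, 3 were higher at p8, none was called higher at e12, 2 were not called and 2 had no p-value. Those called were Gfap (0.385 at e12 and 3146 at p8), Aqp4 (5.05 and 1949) and Gjb6 (3.62 and 55.0). The summed level of astrocyte markers was 7016 at e12 and 6491 at p8. Most of the e12 sum was Slc1a2 (5604 at e12 and 514 at p8), which had no p-value. Of 10 MN markers, 7 were higher at e12 and 3, Chat, Slc5a7 and Prph, were not called, while Isl1, Isl2 and Lhx3 were under a level of 1 at p8. Inhibitory interneuron markers were called higher at e12 in 6 of 7 genes (the remaining gene had no p-value), with a summed level of 20990 at e12 and 76.6 at p8. The same held for 6 of 6 genes of excitatory interneurons (2159 and 24.2) and 5 of 5 of sensory neurons (1418 and 4.39, Isl1 among them). In bulk samples fewer cells of a type and less RNA per cell cannot be told apart.

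The comparison of stages asked how channel genes differ between the brachial cells sorted at e12 and at p8, and most that could be tested differed. The sorting reporter changed with the stage, Mnx1-GFP at e12 and tdTomato at p8, so the effects of age and sorting cannot be told apart. Between e12 and p8, 96 of the 98 genes had reads (Kcna10 and Kcnk16 had none), and 83 of those had a p-value. Of the 83, 42 were higher at e12, 11 were higher at p8 and 30 were not called (DESeq2's Wald test, adjusted), where 47.8% of all genes were called. The e12 calls were 50.6% of the members tested, against 24.8% of all genes, and the p8 calls 13.3%, against 23% of all genes. The median log2 fold change (e12 over p8) was 2.31 over the tested members and -0.04 over all genes. The 10 markers of mature neurons were split, with 7 called higher at e12, 1 higher at p8 and 2 not called. Their summed level was 102244 at e12 and 90843 at p8. Their log2 fold changes ran from -7.64 (Nefh) to 6.35 (Rbfox3), with a median of 3.52. Measured from that median, 16 channel genes were higher at e12 and 29 at p8, so that e12 took 35.6% of the calls in place of 79.2%. This scale lowers every gene alike, and on it 19.3% of the members and 4.45% of all genes were higher at e12, and 34.9% and 68.7% higher at p8. On this scale 9 of the 42 genes had a negative value, and 3 of those were called on the p8 side, namely Kcnmb4, Kcnn2 and Kcnq1ot1. The other 6, Kcnab3, Kcnb2, Kcnk3, Kcnk10, Kcnmb4os2 and Kcns1, were not called there. The Kcnh and Kcnd genes described next kept positive values there, and 6 of 8 and 0 of 3 of them were called at e12.

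**Figure D1:**
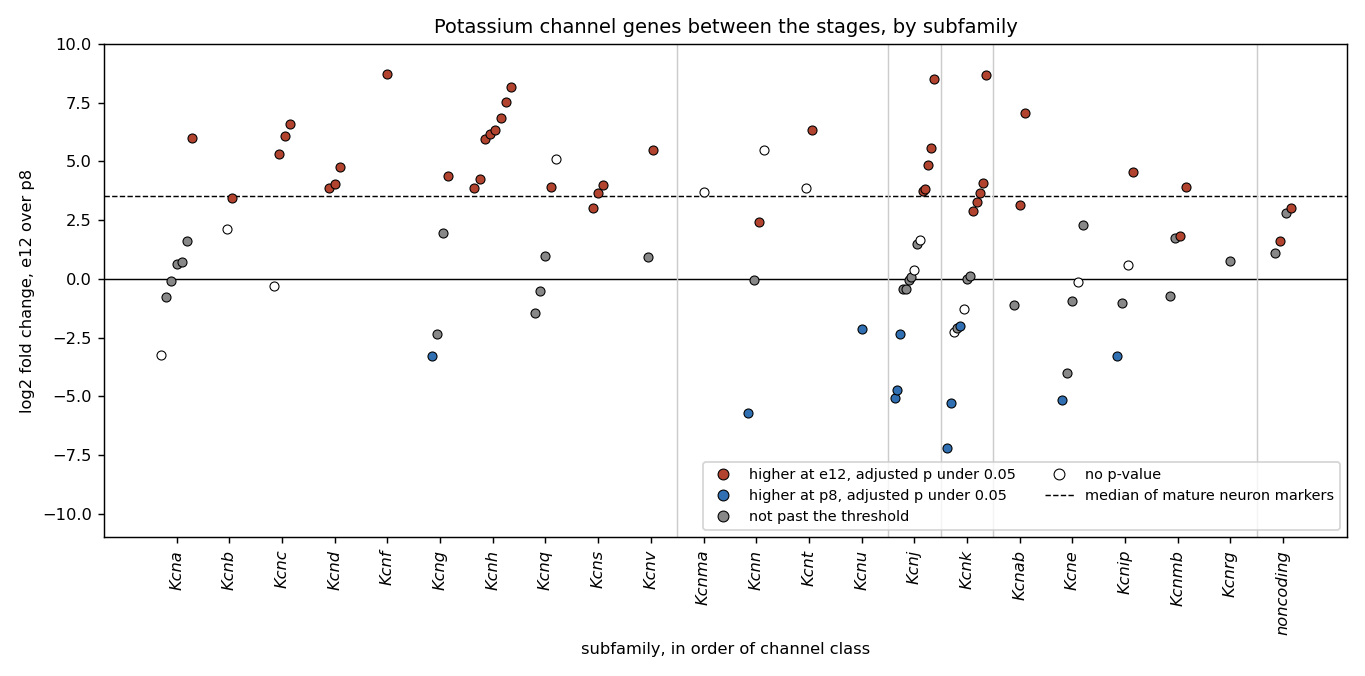
The e12 over p8 log2 fold change (vertical axis) of the 96 channel genes with reads is plotted by subfamily, with 1 point a gene and vertical lines between channel classes. All 8 Kcnh genes lie above 0, most Kcna genes lie near it, and the dashed line marks the mature neuron median of 3.52.

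The voltage-gated pore genes carried most of the e12 calls. Of 35 tested, 23 were higher at e12, 1 was higher at p8 and 11 were not called, with a median log2 fold change of 3.91. Their summed level was 14141 at e12 and 1941 at p8.

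The ether-à-go-go subfamily (Kcnh) was higher at e12 in 8 of 8 genes, with a summed level of 3343 at e12 and 49.8 at p8. Kcnh4, a slowly deactivating channel of the Elk branch, had a level of 547 at e12 and 1.88 at p8 (log2 fold change 8.18, interval 6.90 to 9.47, adjusted p = 8.27e-34). Its relative Kcnh8 went from 288 to 1.55 (7.53, 6.09 to 8.98). Both were among the genes with the smallest p of all members. Kcnh2 encodes the ERG channel, which also carries the rapid delayed rectifier of the heart, and its e12 level per kb of exon, 458, was the highest of any channel gene, with 7.47 per kb at p8. Kcnh1, Kcnh3, Kcnh5 and Kcnh6 each had a p8 level under 1. A level that low is set by the fitted model rather than by counted reads, so that the fold changes of such genes are not measured sizes. This held for 18 of the 42 genes called higher at e12.

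The promoters of Kcnh4 and Kcnh8 are shown as the best supported examples on the e12 side that have a single window in the RefSeq table (GRCm38.p6), beside the corresponding pair on the p8 side, Kcnk13 and Kcnj10. Each window runs from 250 bases before to 50 after the start, on the strand of the gene, and capitals mark GGGCGG on either strand, the core of the GC box bound by Sp factors.
Kcnh4, chr11:100759729-100760028, minus strand: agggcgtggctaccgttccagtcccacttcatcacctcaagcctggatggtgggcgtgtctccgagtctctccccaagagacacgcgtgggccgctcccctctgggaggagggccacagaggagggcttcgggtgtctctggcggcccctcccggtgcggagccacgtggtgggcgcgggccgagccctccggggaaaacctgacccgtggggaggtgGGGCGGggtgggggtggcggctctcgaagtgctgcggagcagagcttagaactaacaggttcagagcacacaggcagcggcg
Kcnh8, chr17:52602459-52602758, plus strand: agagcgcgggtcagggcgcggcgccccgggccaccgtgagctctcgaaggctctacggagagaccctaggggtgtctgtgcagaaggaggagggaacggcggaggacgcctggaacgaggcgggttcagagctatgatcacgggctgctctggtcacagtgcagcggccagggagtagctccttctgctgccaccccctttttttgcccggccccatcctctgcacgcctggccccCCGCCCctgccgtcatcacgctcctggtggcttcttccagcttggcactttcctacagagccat
Kcnk13, chr12:99964249-99964548, plus strand: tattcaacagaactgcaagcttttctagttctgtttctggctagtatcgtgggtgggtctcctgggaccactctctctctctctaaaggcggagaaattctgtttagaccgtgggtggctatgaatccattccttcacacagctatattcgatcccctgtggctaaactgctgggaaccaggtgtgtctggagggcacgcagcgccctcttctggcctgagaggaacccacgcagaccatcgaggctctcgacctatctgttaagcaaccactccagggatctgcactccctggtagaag
Kcnj10, chr1:172340960-172341259, plus strand: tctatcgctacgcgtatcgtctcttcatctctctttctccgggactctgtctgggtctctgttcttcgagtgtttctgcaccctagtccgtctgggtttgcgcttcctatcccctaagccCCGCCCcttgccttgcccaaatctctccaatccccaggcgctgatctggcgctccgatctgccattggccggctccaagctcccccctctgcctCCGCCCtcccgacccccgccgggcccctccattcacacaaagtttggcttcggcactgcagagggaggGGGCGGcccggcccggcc
The gene annotation places the outermost start of Kcnh4 and Kcnk13 further upstream than these windows do, at 100760115 and 99963149. The Kcnh4 and Kcnh8 windows held 1 GC box each and 23 and 21 CpG pairs, the Kcnj10 window 3 GC boxes and 21 CpG pairs, and the Kcnk13 window no GC box and 9 CpG pairs. RefSeq windows were matched for 69 of the 94 protein-coding members. GGGCGG lay in 56.4% of the 39 windows of genes higher at e12, 35.7% of the 14 windows of genes higher at p8 and 35.7% of all 32851 windows. The median GC content of those groups was 62.7%, 55.0% and 52.7%. The e12 windows came from 26 genes and the p8 windows from 9. Of the 41 windows of members called in neither direction, 43.9% held GGGCGG, and their median GC content was 57.7%. TATAAA, searched on both strands, lay in 5.13% of e12 windows, 7.14% of p8 windows and 13.6% of all windows. CAGCACC, a stretch of the site of the neuronal repressor REST, lay in 12.8%, 7.14% and 7.14%. TGATTNAT, the site shared by Hox and Pbx proteins, was in no window of either called group. It lay in 4.88% of the windows of members called in neither direction and in 3.22% of all windows. These are matches of letters and were not tested.

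The Shaw subfamily (Kcnc) forms the fast channels that let neurons fire at high rates. Kcnc1 had a level of 1686 at e12 and 17.4 at p8 (6.59, 5.23 to 7.96, adjusted p = 4.82e-20). Kcnc2 went from 149 to 2.19 and was also called. Kcnc4 had no p-value and levels of 23.9 and 29.1.

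The Shal subfamily (Kcnd), whose channels carry the somatodendritic A-type current, was called higher at e12 in 3 of 3 genes. Kcnd3 had the highest level of them, 1490 at e12 and 91.8 at p8 (4.02, 2.43 to 5.61). Kcnd2 went from 726 to 26.6 (4.77, 3.56 to 5.99) and Kcnd1 from 88.1 to 5.96. Among their partners, Kcnip1, a calcium-binding subunit, went the same way from 854 to 36.9 (4.53, 3.80 to 5.26), and so did Dpp6, a membrane-spanning subunit, from 2258 to 205. Kcnip3, also known as the calcium-dependent repressor DREAM, was called the other way, with 84.4 at e12 and 825 at p8. Kcnip4 was not called (interval -2.45 to 0.36), and Kcnip2 had no p-value.

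The Shaker subfamily (Kcna), known for the low-threshold channels of axons and their juxtaparanodes, differed from these in that 1 of 6 tested genes was called. That gene was Kcna4, the A-type member, with 120 at e12 and 1.85 at p8 (6.01, 4.35 to 7.67). Kcna6 had levels of 517 and 545, and the interval of its log2 fold change was -0.85 to 0.70. Kcna1 had 346 and 213 (-0.57 to 1.97) and Kcna2 had 263 and 168 (-0.38 to 1.68), neither called. These intervals bound the change of each of the 3 genes to under 4-fold. Measured from the mature neuron median, Kcna1, Kcna2 and Kcna6 were all called on the p8 side. Kcna3, a channel also used by T cells and microglia, had 34.0 at e12 and 321 at p8 but no p-value. Kcnab2, the beta subunit that binds Shaker channels, had 509 and 1093 (interval -2.24 to 0.04) and was not called. The other beta subunits were higher at e12, with Kcnab1 at 111 and under 1 and Kcnab3 at 297 and 33.5. Among the proteins that hold Shaker channels at the juxtaparanode, Cntn2 fell from 3128 at e12 to 0.602 at p8 and Cntnap2 from 1360 to 0.568, whereas Epb41l3, which anchors them to the cytoskeleton and is also made by oligodendrocytes, was at 828 and 11939 and higher at p8. The scaffold Dlg4 went from 5463 to 58.6.

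The channels of the M-current (Kcnq), a slow current that restrains repeated firing, included Kcnq3, which fell from 146 at e12 to 9.69 at p8 (3.91, 2.14 to 5.68). Kcnq5 had 29.6 and 81.8 and was not called. Kcnb2, a delayed rectifier of the Shab subfamily, was called at 150 and 13.7.

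Of the 10 subunits that form no channel on their own but modify Shab channels, 6 were higher at e12, namely Kcnf1, Kcng2, Kcns1, Kcns2, Kcns3 and Kcnv1. Kcnf1 had by far the highest e12 level of these, 220, with a p8 level under 1, and the other 5 ranged from 6.09 to 22.1 at e12. Kcng4 was called the other way, with 7.31 at e12 and 71.5 at p8 (-3.29, -4.82 to -1.76, adjusted p = 9.21e-05), the only tested voltage-gated pore gene called higher at p8. Kcng1 had 3.24 and 16.7 (-2.37, -4.56 to -0.17) and was not called, nor were Kcng3 and Kcnv2.

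Genes of calcium- or sodium-activated channels went both ways, with 2 higher at e12, 2 higher at p8 and 1 not called of 5 tested. Kcnn2, a small-conductance channel of the afterhyperpolarization, had 87.0 at e12 and 16.1 at p8 (2.43, 1.56 to 3.30). Kcnt2, activated by sodium, had 39.0 at e12 and a p8 level under 1. On the p8 side, Kcnn4, the intermediate-conductance channel known from blood cells and microglia, went from 1.71 to 88.3 (-5.69, -7.13 to -4.26, adjusted p = 9.03e-14). Kcnu1, a pH-sensitive channel known from sperm, went from 42.3 to 186 (-2.14, -3.91 to -0.36). Kcnn3, the small-conductance channel of slow motor units, had 68.3 and 70.6 and was not called (interval -1.24 to 1.15). The 3 members without a p-value all had higher e12 levels, namely Kcnn1 with 1611 and 36.4, the large-conductance channel Kcnma1 with 725 and 55.3, and Kcnt1 with 543 and 37.2. Subunits of the large-conductance channel were higher at e12 in 2 of 4 genes, Kcnmb4 at 309 and 86.5 and Kcnmb2 at 72.8 and 4.80.

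**Figure D2:**
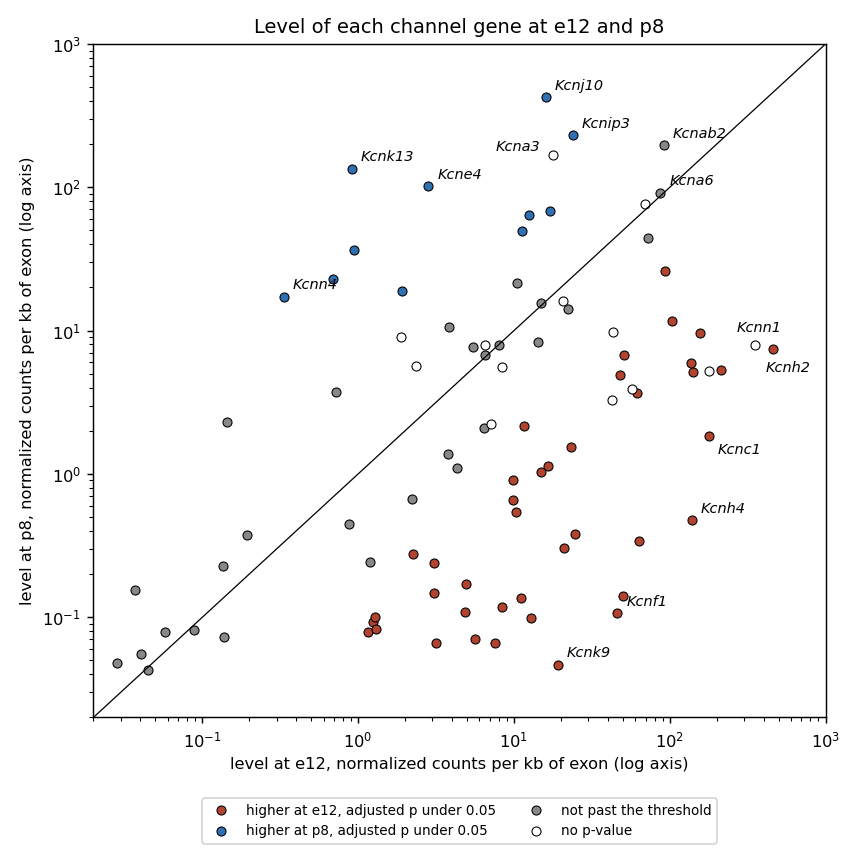
Each protein-coding channel gene is placed by its level at e12 (horizontal) and p8 (vertical), in normalized counts per kb of exon on log axes, with equal levels on the diagonal. Kcnh2 lies farthest right at 458 per kb and Kcnj10 highest at 425 per kb, and the genes lowest in the plot have p8 levels under 1 count.

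Inward rectifier genes (Kcnj) were split, with 5 higher at e12, 3 higher at p8 and 5 not called of 13. Kcnj10 encodes the glial channel that clears potassium, made by astrocytes and oligodendrocytes. It had 86.7 at e12 and 2300 at p8 (-4.73, -5.91 to -3.55, adjusted p = 4.2e-14), and its 425 per kb was the highest of any channel gene at p8. Its partner subunit Kcnj16 went from 2.69 to 89.5 and Kcnj12, a strong rectifier, from 34.3 to 175. The e12 side held the channels opened by G proteins, Kcnj5, Kcnj6 and Kcnj9, of which Kcnj9 had the highest level, 63.6 at e12 and 4.43 at p8, and the fourth, Kcnj3, had no p-value at 37.3 and 11.7. It also held Kcnj14, at 13.5 and under 1, and Kcnj11, at 185 and under 1. Kcnj11 forms the ATP-sensitive channel of neurons with the sulfonylurea receptor Abcc8, and Abcc8 was higher at e12 as well (359 and 1.18). The vascular ATP-sensitive pair, Kcnj8 and Abcc9, was not called, with Kcnj8 at 38.2 and 40.0 and Abcc9 at 132 and 73.9. The highest gene without a call among the other rectifiers, Kcnj2, had 112 and 87.1 and no p-value.

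The tandem-pore genes (Kcnk), which carry leak current, had 5 higher at e12, 3 higher at p8 and 3 not called of 11. On the e12 side, the acid-sensitive channel Kcnk3 went from 191 to 19.6 (3.28, 2.42 to 4.15), and its relative Kcnk9 from 236 to a level under 1. The stretch-sensitive Kcnk2 went from 305 to 18.3 and Kcnk10 from 449 to 59.8, and Kcnk4 was low at both stages (5.71 and 0.451). On the p8 side, Kcnk13, known from microglia, had the most negative log2 fold change of all members, with 2.82 at e12 and 419 at p8 (-7.22, -8.40 to -6.03, adjusted p = 2.91e-31). Kcnk6 went from 3.92 to 152 (-5.27, -7.59 to -2.96) and Kcnk1, also a channel of astrocytes, from 38.1 to 153. Kcnk5 stood at 27.2 and 27.1, with an interval of -1.69 to 1.70.

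Auxiliary subunits were called 5 times at e12 and 2 times at p8 in 15 tested genes. Besides Kcnip3, the p8 call was Kcne4, an inhibitory subunit of Shaker and M-current channels, at 7.48 and 270 (-5.18, -7.15 to -3.20). The regulator Kcnrg had 26.0 and 15.2 and Kcne1l had 106 and 118, the latter with no p-value. Of the 4 noncoding RNAs, 2 were higher at e12. These were Kcnmb4os2, at 50.9 and 6.33, and Kcnq1ot1, the imprinted antisense RNA within Kcnq1, at 654 and 215 (1.60, 0.43 to 2.78). Whether counting used strand is not given in the sources used here, so reads of Kcnq1ot1 and Kcnq1, or of Kcnmb4os2 and Kcnmb4, cannot be told apart where they overlap. A fixed list of 23 partner genes of these channels gave 8 higher at e12, 3 higher at p8 (Vapa, Lgi3 and Epb41l3) and 6 not called, and its median log2 fold change was 1.78.

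The makeup of the channel genes changed with their order by level. Over protein-coding members, voltage-gated pores made up 57.8% of the summed level per kb at e12 and 20.8% at p8. The share of inward rectifiers went from 4.39% to 27.0%, and without Kcnj10 from 3.94% to 7.68%. The share of tandem-pore genes went from 6.21% to 13.7% and the share of auxiliary subunits from 17.4% to 34.0%. Calcium- or sodium-activated pores went from 14.2% to 4.49%. At e12 the genes with high levels per kb included Kcnh2 (458), Kcnn1 (351), Kcnc1 (178) and Kcnd3 (155). At p8 the highest were Kcnj10 (425), Kcnip3 (233), Kcnab2 (196), Kcna3 (169) and Kcnk13 (135). Kcnn1 and Kcna3 had no p-value, so their differences between the stages were not tested. Kcna3 gave 169 of the 422 per kb that voltage-gated pores summed to at p8. Without values per sample, neighbours in these orders cannot be separated by their spread.

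**Figure D3:**
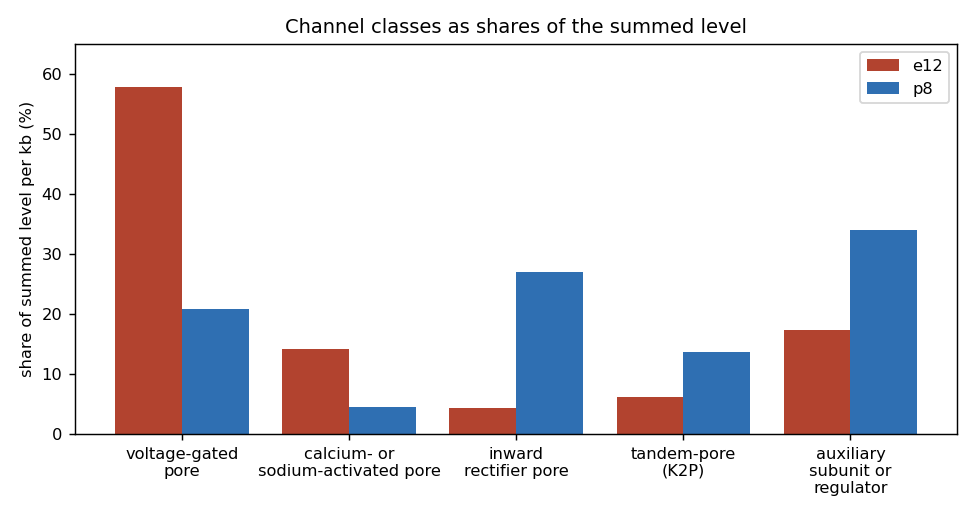
The bars give the share of the summed level per kb of exon (vertical axis, %) that each channel class held at e12 (red) and p8 (blue), over protein-coding members. Voltage-gated pores hold 57.8% and 20.8%, and inward rectifiers 4.39% and 27.0%. The values have no error, since the files hold none per sample.

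The names brachial, thoracic and lumbar MNs below are those of the labels, for sorted p8 samples that also held markers of oligodendrocytes and microglia. At p8 each region was compared with the other two, and no channel gene was called in any of the 3 tables. The background was as low, with 0.261%, 0.011% and 0.0219% of all genes called in the brachial, thoracic and lumbar tables. At an unadjusted p under 0.05 there were 6 of 88 members in the brachial table, or 6.82% against 6.54% of all genes. In thoracic MNs it was 2 of 80, or 2.50% against 1.45%, and in lumbar MNs 1 of 85, or 1.18% against 2.88%. The 3 tables share the same 9 samples, and the brachial ones among them also stand in the stage comparison.

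The 6 brachial genes did not pass the adjustment, and 4 of them had lower brachial levels. Kcnt2 had a level of 1.73 in brachial, 13.4 in thoracic and 13.1 in lumbar MNs, each solved from its own table (brachial log2 fold change -3.18, interval -5.69 to -0.67). Regional levels follow from the fitted fold changes and need not equal the means of the groups. Kcnma1 was at 31.3, 104 and 79.2 (-1.58, -2.99 to -0.17) and its subunit Kcnmb4 at 48.6, 87.5 and 107 (-1.01, -1.91 to -0.10). Kcnk5 was at 21.4, 44.4 and 154, and its lumbar fold change of 2.28 (0.49 to 4.06) was the lumbar table's single value at p under 0.05. On the higher side were Kcng4, at 36.9, 6.80 and 8.59 (2.56, 0.34 to 4.78), and Kcnab2, at 621, 220 and 230 (1.52, 0.03 to 3.01). In thoracic MNs the 2 genes were Kcna4, at 27.1 against 3.12 in brachial and 4.58 in lumbar (2.88, 0.99 to 4.76), and Kcnj4, at 7.13, 1.82 and 2.01. The next thoracic gene by p, Kcnk13, had 538 in thoracic, 232 in brachial and 324 in lumbar MNs (0.93, -0.01 to 1.88). The next lumbar ones were Kcnmb1 at 28.3, which lies within the bounds of Kcnip1, and Kcnj12 at 33.7 against 91.2 in brachial MNs.

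Whatever the calls, 67 of 88 members, 76.1%, had a negative brachial fold change, against 53.6% of all genes, with medians of -0.67 and -0.03. In thoracic MNs 26 of 80, 32.5%, were negative, against 58.8% of all genes, and in lumbar MNs 44 of 85, 51.8%, against 54.7%. At a base mean of 10 or more, 72% of members were lower in brachial MNs, against 51.3% of all genes. In thoracic MNs 31.25% were lower, against 60.1%. Among these members, 18 of 22 voltage-gated pores were lower in brachial MNs, and 15 of 21 were higher in thoracic MNs. Calcium- or sodium-activated pores leaned alike, with 5 of 7 lower in brachial and 6 of 7 higher in thoracic MNs. Inward rectifiers were higher in brachial MNs in 3 of 4 genes. Of the 5 members highest per kb at p8, Kcnj10 had a brachial log2 fold change of 0.01 (-1.20 to 1.23) and Kcnip3 one of 0.00 (-2.14 to 2.13), while Kcnab2 had 1.52, Kcna3 1.45 (-1.02 to 3.92) and Kcnk13 -0.90 (-1.93 to 0.12). Standard errors reached 1.35 in the brachial table, so the intervals leave room for changes of several fold in most members. Microglia markers were summed to 13556, 17460 and 6821 in the brachial, thoracic and lumbar samples, and mature neuron markers to 47160, 19459 and 56399. Oligodendrocyte markers were summed to 8437394, 6597814 and 8444481. The part of these markers in these directions was not tested.

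**Figure D4:**
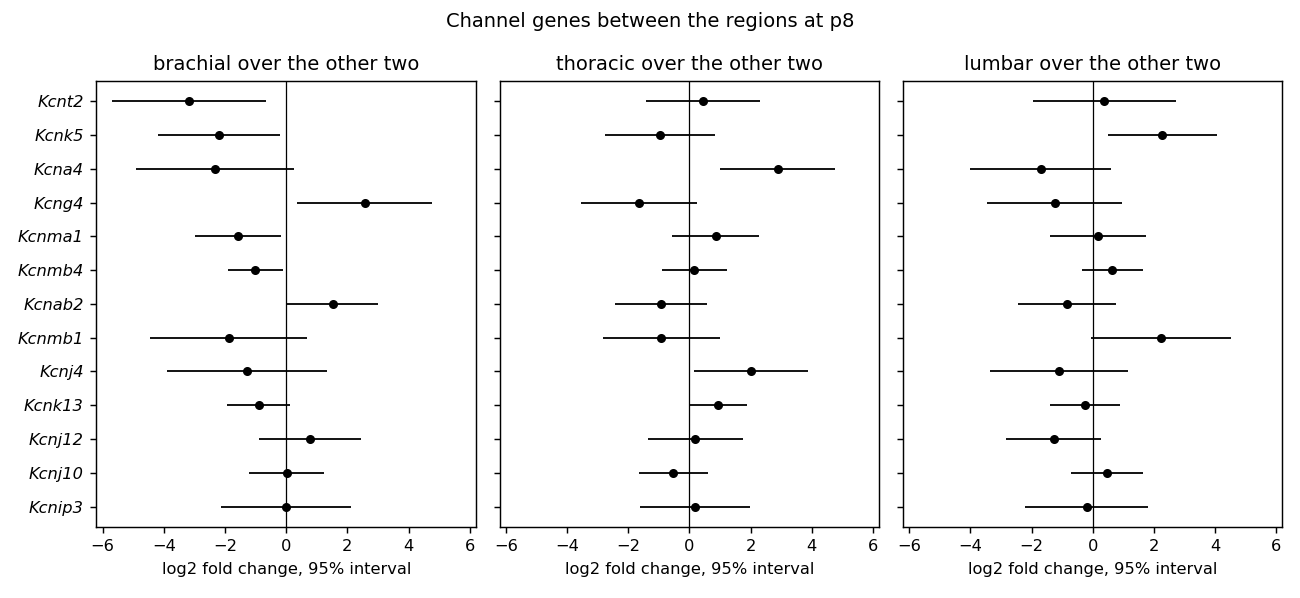
The log2 fold change of each region over the other two, with its 95% interval, is plotted for 13 channel genes, namely 8 with p under 0.05 in a region, 3 next by p, and 2 with high p8 levels. Kcnt2 lies lowest in brachial MNs at -3.18 and Kcna4 highest in thoracic MNs at 2.88, and no gene passed the adjusted threshold.

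At e12 the samples labelled Hoxc8 MNΔ were compared with controls, which asks whether the channel genes depend on this Hox gene when it is lost in progenitors. Hoxc8 itself was not called, with a log2 fold change of control over mutant of 0.10 (-0.06 to 0.26) and a DESeq2 Wald p of 0.209 in the fit across all transcripts, so that this value does not check the labels. The paper, by contrast, lists Hoxc8 among the transcripts lower in these mutants, and its staining found no Hoxc8 protein in their brachial MNs. Of the 98 members 85 had reads and a p-value in the mutant table. None had a p under 0.05, where 0.871% of all transcripts did, and none had an adjusted p under 0.05, where 0.0357% did. None of 105 transcripts of members with a p-value reached 0.05 either. The smallest Wald p belonged to Kcnip1 (0.0973), Kcna1 (0.118) and Kcnab1 (0.136). The Kcnip1 transcript had a base mean of 8.62, and all transcripts of Kcnip1 summed to 0.0103 times its e12 level of the stage table. That ratio was 1.48 for Kcna1 and 0.398 for Kcnab1.

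The 28 members with a base mean of at least 100 had log2 fold changes between -0.13 and 0.09, and their intervals ran from -0.29 to 0.25. The levels in this table follow from the fitted fold changes, none of which exceeded 0.424 in size over all transcripts, and are not means of the groups. Kcna1 was at the low end, with a fitted level of 490 in controls and 536 in mutants (-0.13, -0.29 to 0.03). Kcnj2 was at the other, with 179 and 168 (0.09, -0.07 to 0.25). The genes that were highest at e12 lay between them, among them Kcnn1 at 2209 and 2092, Kcnc1 at 1593 and 1674, Kcnd3 at 1471 and 1597 and Kcnd2 at 1143 and 1151. Kcnh4, the member with the smallest p between the stages, had 739 and 755, and Kcnh8 had 426 in both groups. No standard error in this table exceeded 0.0835, against 2.39 in the stage table, and transcripts with a base mean under 1 had a median standard error of 0.00683. The fold changes therefore lie close to 0 where reads are few, and the intervals do not bound the true size of a change. Members with several transcripts were poorly covered here. Of the members with an e12 level of at least 20, the 37 with 1 transcript had a median of 1.49 times their e12 level of the stage table, and the 24 with more had a median of 0.0342 times, 4 of them without reads.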

How the data were processed

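MNs sorted from mouse spinal cord were profiled by RNA-Seq in 18 samples, grouped by stage, region and genotype as labelled. The authors aligned unique reads to GRCm38 (mm10), used featureCounts for the counting and ran DESeq2 within Galaxy. They deposited 5 tables: e12 over p8, control over Hoxc8 mutant, and brachial, thoracic and lumbar each over the remaining regions. The base mean is a signal, the mean of normalized counts over the samples, as deposited by the authors. Log2 fold changes with standard errors were deposited by the authors, as were the Wald score (their ratio) and the p-value of the 2-sided Wald test with its adjusted form. These columns are the authors' own comparisons, and they are the only measurements in the files used here. No depth per sample can be given, and the precision of each value is that of its standard error.

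Symbols, positions and exon lengths came from the GRCm38.p6 annotation, matched by Entrez identifier or RefSeq transcript. A symbol was found for 93.0% of genes and 99.2% of transcripts. In the mutant table the transcript with the highest base mean stood for each gene. Adjustment was by Benjamini-Hochberg across the whole of a table. The threshold was an adjusted p of 0.05 for stages and regions and a p of 0.05 for mutants. Intervals of 95% are normal ones, from the standard error. Levels were solved with weights of 6 and 3 samples between stages, 3 and 6 between regions, and 3 and 3 for mutants. In the stage comparison, base means of genes detected by 1 read took 6 values at a log2 fold change of -0.77. They took 2 values at lower ones, -1.68 and -1.86. The first were taken as e12 samples and the others as p8 samples, which was inferred, since every sign was negative. The 2 p8 values are fewer than the 3 samples used as weight. Between the stages 11.4% of genes with reads had no p-value, as did 13 members.

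The genes named were the 4 with the smallest p per direction in each channel class, the 2 highest without a call, the 3 with the smallest p in each other table, a fixed list of 25 and 3 partners per direction. Others are named where a subfamily is described, and were chosen after their values were seen. Class shares were also computed with other sample weights and without Kcnj10, the latter chosen after seeing the data. Several genes covered by this rule are left out of the text. Members and lists were chosen with earlier results of these data known. The steps were tested on simulated data. Software was scipy 1.17.1, pandas 2.3.3, numpy 2.4.6 and matplotlib 3.10.9 under Python 3.11.15.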

Additional observations from a re-analysis of the deposited data

How the results depend on the processing

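Between the stages, 42 members were called higher at e12 and 11 higher at p8. With the authors' adjusted p, Benjamini-Yekutieli adjustment, a base mean of at least 10, a fold over 4 or re-centring on all genes, the e12 count ranged from 34 to 42 and the p8 count from 10 to 11. At a base mean of 100 or more the counts were 21 and 3, since fewer genes were tested. Re-centred on the 10 mature neuron markers, an alternative chosen after seeing the data, they were 16 and 29, or 19.3% and 34.9% of members against 4.45% and 68.7% of all genes. In that setting 9 of the 42 genes became negative. Of those named by the rule, Kcnn2 (-1.09), Kcnk3 (-0.23), Kcnk10 (-0.61), Kcnab3 (-0.37), Kcnmb4 (-1.68) and Kcnq1ot1 (-1.92) changed the sign of their log2 fold change, which follows from subtracting 3.52. Regional counts stayed at 0 in every adjusted setting and were 6, 2 and 1 at an unadjusted p under 0.05. The mutant count was 0 in all settings. With weights of 3 and 3 or 6 and 2 samples, the levels of the 53 named members moved by less than 1 standard error, except for Kcnip1 with 3 and 3 (1115 and 48.2). The p8 share of voltage-gated pores was then 19.3% to 23.4% and that of inward rectifiers 24.0% to 28.9%. No paired analysis was possible because the files hold no value per sample, and for the same reason no replicate could be left out. Changes of genes with a level under 1 at either stage were limited by depth.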
